A study of Mus musculus with 5 samples.

Results

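A set of 9 genes of the Hedgehog signalling pathway was followed in cultured neural precursor cells of the adult mouse forebrain. They are the ligand gene Shh, the receptor genes Ptch1 and Smo, the co-receptor gene Gas1, the inhibitor genes Hhip and Sufu, and the transcription factor genes Gli1, Gli2 and Gli3. They were taken by gene symbol, as 9 of 46078 genes in the expression table of each library. The rule used no expression value, though the set was proposed with earlier results of these data known. All 9 were above 0 TPM (a gene's length-adjusted share of the transcripts of a library, scaled to the same sum in all of them) in all 5 libraries. A total of 6 members (Ptch1, Smo, Gas1, Sufu, Gli2 and Gli3) had a mean of at least 1 TPM and were tested among 13870 such genes, and the other 3 (Shh, Hhip and Gli1) are given as levels.

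The cells were neural stem and precursor cells (NPC) of the subventricular zone (SVZ), the wall of the lateral ventricles where stem cells persist in the adult brain. They came from C57BL/6 mice recorded as female, aged 5 to 8 weeks and without mutation, while the study's methods give an older age. The cells were grown in EGF and FGF2 and plated on poly-D-lysine. For plated SVZ cells the study's methods give a medium with fetal bovine serum, EGF and FGF2. On the day after plating the cells received PBS as a sham exposure, with RNA isolated 1 h later (2 libraries) or 8 h later (3 libraries). All 5 libraries are therefore sham controls that differ in time, and cells exposed to hydrogen peroxide were not analysed here. The media listed for these cells contained no Hedgehog agonist. The study used them as forebrain controls for cells that it had derived from embryonic stem cells.

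In Hedgehog signalling a secreted ligand binds Ptch1, which in the absence of ligand keeps the transmembrane protein Smo inactive. Active Smo moves into the primary cilium, and there Gli2 and Gli3 are released from Sufu and are no longer cut into repressors. Ptch1, Hhip and Gli1 are themselves targets of Gli, and for this reason Gli1 is widely used as a readout of the pathway. In the adult SVZ the pathway is known to maintain stem cells, mainly those of the ventral wall.

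The libraries did not differ by time alone. Their identifiers in the labels fall into 2 number series, with both 1 h libraries and 8 h replicate 14 in series 1, and 8 h replicates 13 and 15 in series 2. The sources used here do not say what these series are. Xist, which is transcribed from the inactive X chromosome, was below 0.1 TPM in the 3 libraries of series 1 and stood at 165.3 and 199.7 TPM in the pair of series 2. The sum of 4 Y-linked genes was 137.6 to 180.9 TPM in series 1 and at most 0.0253 TPM in series 2, so the 3 libraries of series 1 went against the recorded sex. Summed TPM of the 6 proliferation markers was 655 to 719 in series 1 and 1258 and 1340 in series 2. Mitochondrial genes held 10.7% to 11.1% of the TPM in series 1 and 6.23% and 6.30% in series 2. The 5 fibroblast and mural markers summed to 76.4 to 114.3 TPM in series 1 and to 12.3 and 17.0 TPM in series 2, nearly all of it Acta2, with Col1a2 and Dcn near 0. All 9 neural stem and precursor markers were detected at a mean of at least 1 TPM, as were all 5 astrocyte, all 7 oligodendrocyte lineage and all 5 neuron markers, against 0 of 5 microglial markers. Of the 5 ependymal markers, 2 had a mean of at least 1 TPM, Foxj1 with 19.2 TPM and Ccdc39 with 3.46 TPM. Of the 5 endothelial markers, 2 had a mean of at least 1 TPM, Flt1 with 11.8 TPM and Kdr with 1.57 TPM. The endothelial markers Cldn5 and Cdh5 were listed at 0 in every library. Because of the series, each member tested, and the other genes named with a fold change, are also given within series 1 (1 h replicates 1 and 2 against 8 h replicate 14) and without 8 h replicate 14. In the latter, time and series cannot be told apart. The series were assigned from the identifiers of the TPM tables, and 3 columns of a separate count table did not match the table of the same name (described last). If the tables and not the columns are misnamed, the library called 8 h replicate 14 here is not the one of series 1, and the values within series 1 lose that meaning.

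The members spanned more than 3 orders of magnitude. By mean over the 5 libraries, the order was Smo with 68.0 ± 16.4 TPM (SD, n = 5), Gas1 with 46.5 ± 16.8, Ptch1 with 43.1 ± 5.18, Sufu with 33.7 ± 2.70, Gli3 with 12.8 ± 3.08, Gli2 with 3.64 ± 1.61, Hhip with 0.748 ± 0.179, Shh with 0.619 ± 0.379 and Gli1 with 0.0580 ± 0.0269 TPM. The ranges of neighbours overlapped from Smo to Sufu and between Hhip and Shh. They did not overlap between Sufu and Gli3, Gli3 and Gli2, Gli2 and Hhip, or Shh and Gli1. Within libraries, Smo was above Gas1 in 5 of 5, Gas1 above Ptch1 in 2 of 5, Ptch1 above Sufu in 4 of 5 and Hhip above Shh in 3 of 5. Receptors, co-receptor and Sufu thus stood highest, and the ligand Shh and the readout gene Gli1 lowest.

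**Figure D1:**
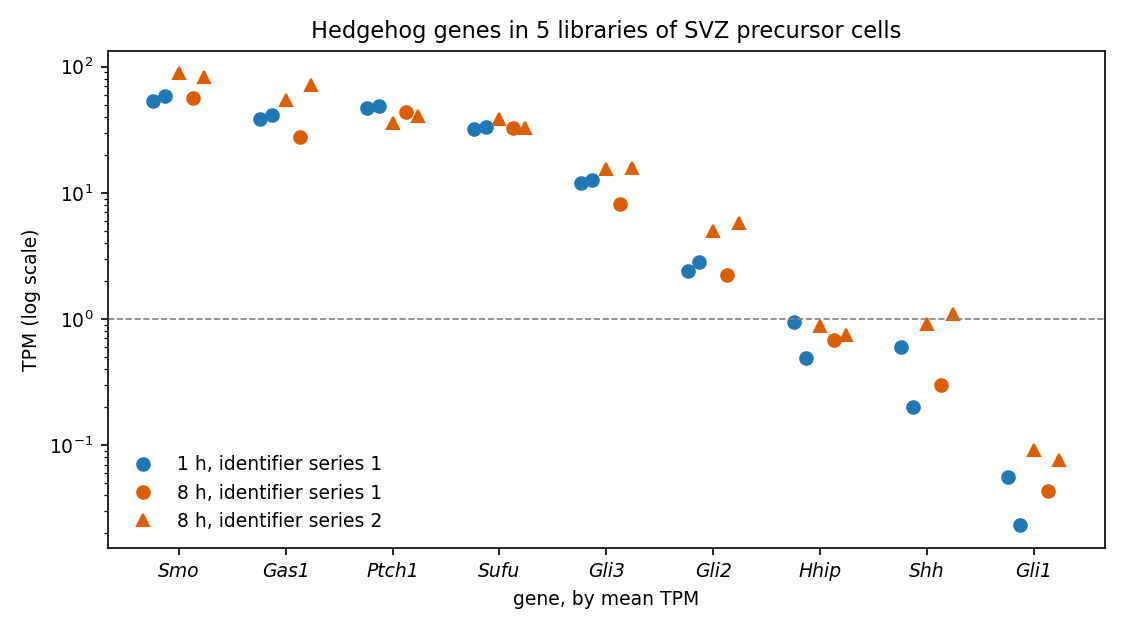
TPM (log axis) of the 9 Hedgehog genes, ordered by mean, with 1 point per library (blue for 1 h, orange for 8 h, circles for identifier series 1, triangles for series 2) and a dashed line at 1 TPM. Smo, Gas1, Ptch1 and Sufu lie between 27.8 and 88.4 TPM, and Gli1 is at most 0.0914 TPM.

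Among the ligands, Shh (ENSMUSG00000002633, GRCm38 chr5:28456815-28467256, minus strand) was barely detected. Its level was 0.603 and 0.202 TPM in 1 h replicates 1 and 2, and 0.906, 0.300 and 1.09 TPM in 8 h replicates 13, 14 and 15. The groups overlapped, and the pair of series 2 was highest. Shh is overlapped on the opposite strand by the noncoding genes Gm26894 (0 to 0.447 TPM) and 9530036O11Rik (0 to 0.0288 TPM), and the sources used here do not say whether the abundance tables were made with strand. Another ligand of the same family was far more abundant. Dhh, desert hedgehog, which is known from testis and peripheral nerve, stood at 56.4 and 65.2 TPM at 1 h and at 89.2, 61.3 and 85.2 TPM at 8 h. Within each library Dhh was between 78.5 and 323 times as high as Shh. Ihh, the remaining mammalian ligand, was at 0 in both 1 h libraries and at 0.0426 to 0.256 TPM at 8 h. Of the genes for ligand processing and release, Hhat (ligand palmitoylation) averaged 1.22 TPM and Disp1 (ligand release) 7.51 TPM.

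The receptor genes differed in their pattern over the libraries. Ptch1 (ENSMUSG00000021466, chr13:63508328-63573598, minus strand) was at 47.1 and 48.4 TPM at 1 h and at 35.6, 43.9 and 40.4 TPM in 8 h replicates 13, 14 and 15. All 3 of the 8 h libraries were below both 1 h libraries, and the pair of series 2 was also below all of series 1. The log2 fold change, 8 h over 1 h on the log2(TPM + 1) scale, was -0.26 (SE 0.12, 95% interval -0.55 to 0.04, limma adjusted p = 0.422), so the difference did not pass the test. It was -0.12 within series 1 (adjusted p = 0.824) and -0.32 without 8 h replicate 14 (adjusted p = 0.0794). Since these are bulk samples, fewer cells of a type and less RNA per cell cannot be told apart here or in the results that follow.

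Smo (ENSMUSG00000001761, chr6:29735503-29761365, plus strand) was the most abundant member. Its level was 53.7 and 57.9 TPM at 1 h and 88.4, 56.6 and 83.2 TPM at 8 h. The libraries of series 2 were high, and 8 h replicate 14 lay between the 1 h libraries. The log2 fold change was 0.42 (SE 0.20, 95% interval -0.08 to 0.91, limma adjusted p = 0.433). It was 0.02 within series 1 (adjusted p = 0.974) and 0.61 without 8 h replicate 14 (adjusted p = 0.0124). An overlapping gene on the same strand, Gm13717, had 4.33 to 6.08 TPM. The ratio of Smo to Ptch1 within a library, which no scaling of a library can change, was 1.14 and 1.20 at 1 h and 1.29 in 8 h replicate 14, against 2.48 and 2.06 in 8 h replicates 13 and 15.

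The promoters of these receptor genes and of Dhh are shown because Ptch1 is a target of Gli, Smo acts upstream of Gli, and Dhh was the leading ligand. They are the 250 bases before the RefSeq start on GRCm38.p6, 5′ to 3′ on the strand of the gene. Capitals mark a GC box, the letters GGGCGG or their reverse complement CCGCCC. The Ptch1 stretch (chr13:63565736-63565985, minus strand) lies inside the longer gene span of the expression tables, before a start downstream of the first one. The Smo stretch is chr6:29735247-29735496 (plus strand) and the Dhh stretch chr15:98898541-98898790 (minus strand).
Ptch1: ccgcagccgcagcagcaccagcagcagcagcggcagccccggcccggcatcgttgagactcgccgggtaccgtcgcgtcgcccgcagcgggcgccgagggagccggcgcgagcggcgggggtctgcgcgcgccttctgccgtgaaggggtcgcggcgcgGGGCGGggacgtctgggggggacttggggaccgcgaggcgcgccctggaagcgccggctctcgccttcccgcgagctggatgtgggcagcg
Smo: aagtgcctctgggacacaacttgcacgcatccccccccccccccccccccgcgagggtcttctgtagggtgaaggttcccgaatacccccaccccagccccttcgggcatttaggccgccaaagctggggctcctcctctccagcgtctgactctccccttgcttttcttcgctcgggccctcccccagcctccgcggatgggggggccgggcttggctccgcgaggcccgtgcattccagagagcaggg
Dhh: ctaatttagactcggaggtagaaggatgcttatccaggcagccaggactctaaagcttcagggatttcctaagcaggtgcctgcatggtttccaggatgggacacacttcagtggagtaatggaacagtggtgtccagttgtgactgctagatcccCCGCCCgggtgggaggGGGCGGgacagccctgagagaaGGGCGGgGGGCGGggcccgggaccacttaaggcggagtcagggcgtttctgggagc
The Ptch1 stretch holds 1 GC box, that of Smo 0 and that of Dhh 4. RefSeq windows of 300 bases (250 before to 50 after the start) were found for 7 of the 9 members, all but Shh and Gli1. Of these 7 windows, 6 hold a GC box, against 35.7% of all 32851 windows. Their GC content was 56.3% to 76.3%, where the median of all windows was 52.7%. The consensus of the Gli site, GACCACCCA or its reverse complement TGGGTGGTC, was in 0 of the 7 windows, also with 1 substitution allowed. It was in 0.253% of all windows as spelled and in 6.74% with up to 1 substitution. The search covers these windows only, and Gli sites further away were not searched.

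Of the co-receptors, which bind the ligand together with Ptch1, Gas1 (ENSMUSG00000052957, chr13:60174405-60177365, minus strand) was at 38.3 and 41.0 TPM at 1 h and at 54.3, 27.8 and 71.3 TPM at 8 h. The 8 h libraries lay on both sides of the 1 h libraries, with replicate 14 the lowest of all. The log2 fold change was 0.26 (SE 0.37, 95% interval -0.65 to 1.17, limma adjusted p = 0.739). Within series 1 it was -0.50 (adjusted p = 0.553), and without 8 h replicate 14 it was 0.64 (adjusted p = 0.0338). Its ratio to Ptch1 was lowest in 8 h replicate 14 (0.634) and highest in 8 h replicate 15 (1.77). Cdon, a co-receptor of the immunoglobulin superfamily, had the largest difference of the pathway genes tested. It was at 37.5 and 36.5 TPM at 1 h and at 93.1, 45.6 and 100.6 TPM at 8 h, so all 8 h libraries were above both 1 h libraries, and 2 of them by far. The log2 fold change of Cdon was 1.01 (SE 0.34, limma adjusted p = 0.369). It was 0.29 within series 1 (adjusted p = 0.659) and 1.36 without 8 h replicate 14 (adjusted p = 0.00203). Boc, its closest relative, was lower, at 3.29 and 3.34 TPM at 1 h and at 4.83, 3.52 and 4.94 TPM at 8 h, and differed by 0.32 on the log2 scale (SE 0.19, limma adjusted p = 0.475), with 0.06 within series 1 and 0.45 without 8 h replicate 14 (adjusted p = 0.0756).

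**Figure D2:**
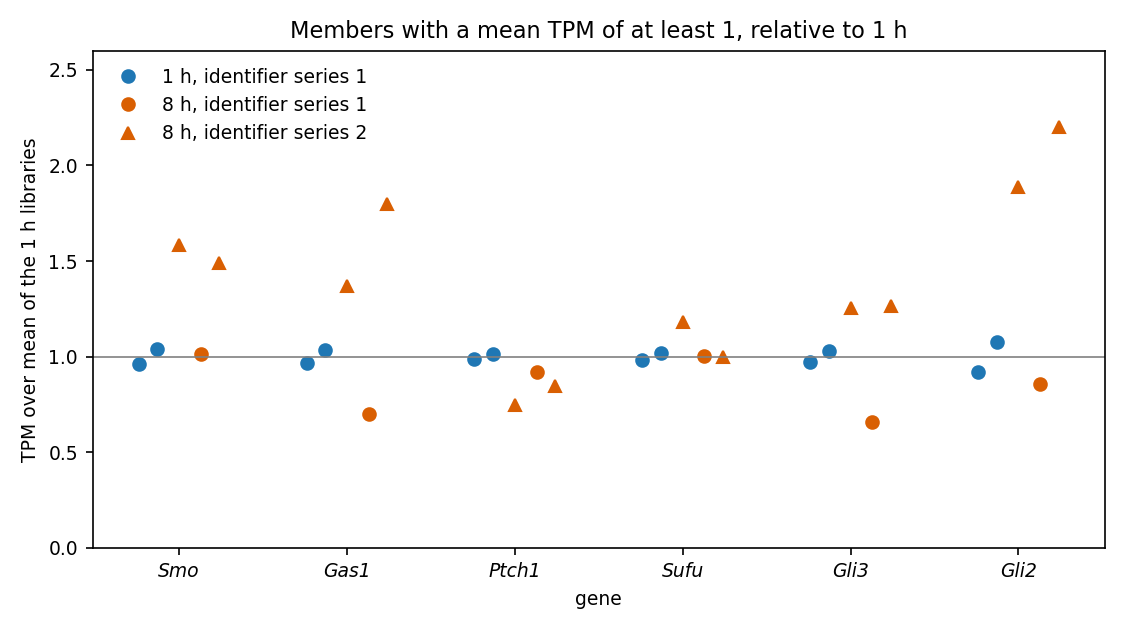
TPM of the 6 members with a mean of at least 1 TPM, divided by the mean of the 1 h libraries, with 1 point per library (blue for 1 h, orange for 8 h, circles for identifier series 1, triangles for series 2). For Smo, Gas1, Gli3 and Gli2 the triangles lie above all circles, for Ptch1 below them, and for Sufu the points of both series overlap.

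The inhibitors differed in level but not detectably in time. Hhip (ENSMUSG00000064325, chr8:79966115-80058006, minus strand), a membrane protein that sequesters the ligand, was at 0.951 and 0.487 TPM at 1 h and at 0.872, 0.686 and 0.744 TPM at 8 h. The 8 h values all lay between the 1 h values. Sufu (ENSMUSG00000025231, chr19:46396896-46488804, plus strand), which holds Gli proteins in the cytoplasm, was the steadiest of the members tested. It was at 31.9 and 33.1 TPM at 1 h and at 38.4, 32.5 and 32.4 TPM at 8 h. Its log2 fold change was 0.08 (SE 0.12, 95% interval -0.22 to 0.37, limma adjusted p = 0.754). It was 0.00 within series 1 (adjusted p = 0.997) and 0.12 without 8 h replicate 14 (adjusted p = 0.501). With the libraries scaled by their median ratio, the value for Sufu was -0.03.

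The Gli genes were unequal, with Gli3 the highest of them in every library. Gli3 (ENSMUSG00000021318, chr13:15463235-15730026, plus strand), known chiefly as a repressor, made up 72.8% to 82.9% of the summed TPM of the Gli genes. It was at 12.01 and 12.72 TPM at 1 h and at 15.5, 8.15 and 15.7 TPM at 8 h, so 8 h replicate 14 was below all others. The log2 fold change was 0.03 (SE 0.29, 95% interval -0.68 to 0.73, limma adjusted p = 0.969). It was -0.55 within series 1 (adjusted p = 0.553), 0.31 without 8 h replicate 14 (adjusted p = 0.0941) and -0.08 with median-ratio scaling. The overlapping antisense gene Gm6556 had 0.676 to 1.15 TPM.

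Gli2 (ENSMUSG00000048402, chr1:118834132-119053619, minus strand), known as the main activator, was at 2.42 and 2.83 TPM at 1 h and at 4.95, 2.24 and 5.77 TPM at 8 h. Again 8 h replicate 14 was the lowest and the pair of series 2 the highest. The log2 fold change was 0.49 (SE 0.34, 95% interval -0.34 to 1.32, limma adjusted p = 0.518), with -0.16 within series 1 (adjusted p = 0.858) and 0.81 without 8 h replicate 14 (adjusted p = 0.0230). Gli3 was 4.97 and 4.50 times Gli2 at 1 h, and 3.14, 3.63 and 2.71 times Gli2 in 8 h replicates 13, 14 and 15. All 3 of the 8 h ratios were below both 1 h ratios, but the share of all gene pairs that separate in this way was not determined. The deposited mean coverage of Gli2 was low, at 1.33 to 3.74 per base.

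Gli1 (ENSMUSG00000025407, chr10:127329889-127341589, minus strand), the readout gene, was near the limit of detection. It was at 0.0557 and 0.0232 TPM at 1 h and at 0.0914, 0.0433 and 0.0763 TPM at 8 h. The groups overlapped, and the pair of series 2 was again highest. The deposited mean coverage of Gli1 was 0.0682 to 0.274 per base, so most of its length was not read in any library and a difference between times was not detectable at this depth. It made up 0.149% to 0.444% of the summed TPM of the Gli genes. Ptch1, the other target of Gli often used as a readout, was 390 to 2088 times as high as Gli1 within a library. Among the 5 genes with the most similar pattern to Gli1 over the 5 libraries, by root mean square distance of centred log2(TPM + 1) values among 11091 genes with a mean of at least 5 TPM, were Mark3 (0.00427), Rpap2 (0.00861), Gtf2h5 (0.0120) and Ogg1 (0.0123). On this scale Gli1 itself spanned 0.0932 over the libraries, so these are genes with almost no variation.

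**Figure D3:**
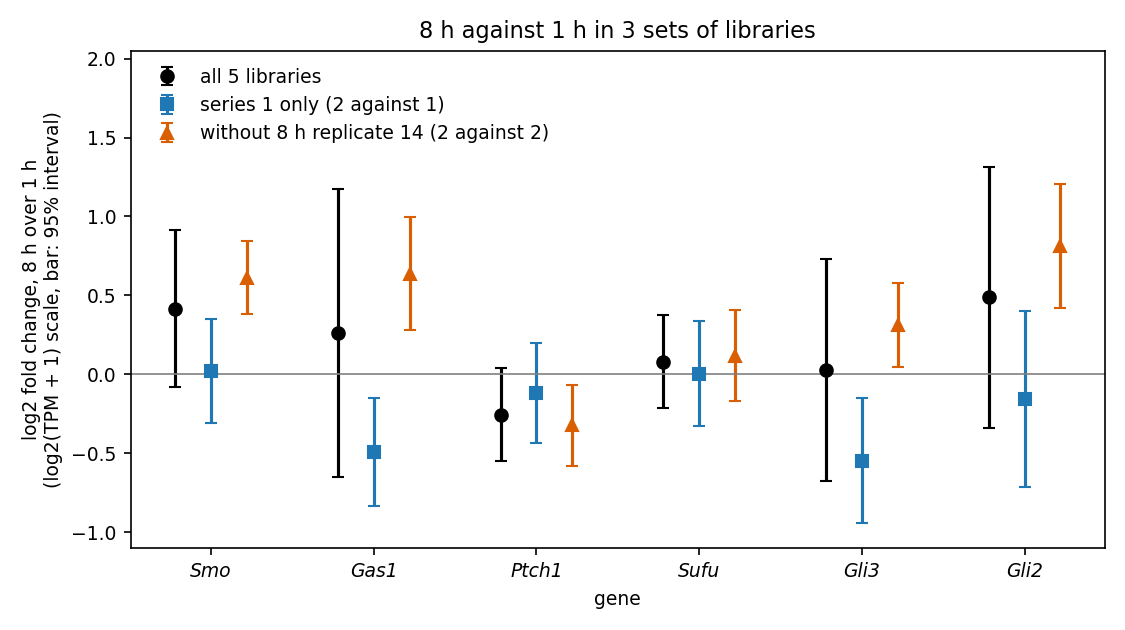
Log2 fold change, 8 h over 1 h on the log2(TPM + 1) scale, with 95% intervals from limma for the 6 members tested, in all 5 libraries (black circles), in identifier series 1 (blue squares, 2 against 1) and without 8 h replicate 14 (orange triangles, 2 against 2). In all 5 libraries every interval includes 0. Gas1, Gli2 and Gli3 lie below 0 within series 1 and above 0 without 8 h replicate 14.

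Over the members, 0 of the 6 tested passed both thresholds (limma adjusted p up to 0.05, and more than 1 on the log2 scale in either direction), where limma called 6 of all 13870 genes (0.0433%). At an unadjusted p under 0.05 the count was 0 of the 6 members and 1712 of all genes. All 3 of the 8 h libraries were above both 1 h libraries for 0 of 6 members, against 23.7% of all genes, and below both for 1 of 6 (Ptch1), against 9.43%. Between the series, the pair of series 2 was above all of series 1 for 4 of 6 members (Smo, Gas1, Gli2 and Gli3), against 39.8% of all genes, and below it for 1 of 6 (Ptch1), against 13.5%. Without 8 h replicate 14, 3 of 6 members (Smo, Gas1 and Gli2) had an adjusted p of at most 0.05, all higher at 8 h, against 19.9% of all genes in either direction. The median log2 fold change of the 6 members was 0.17, beside 0.10 for all genes, and -0.14 within series 1, beside 0.01. Without 8 h replicate 14 the median of the members was 0.46, and that of all genes was not determined. The summed TPM of the proliferation markers moved with the series in the same libraries as Smo, Gas1, Gli2 and Gli3. So did that of the astrocyte markers (491 to 629 in series 1, 821 and 827 in series 2). Most of the astrocyte sum was Aldh1l1 (455 to 724 TPM). Of the other astrocyte markers, Gfap, Aqp4 and Slc1a2 also moved this way, and S100b did not. The part of these markers in the members' values was not tested.

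Further genes of the pathway were described in 4 lists. Their medians without 8 h replicate 14 likewise stand without a median of all genes beside them. Of 12 genes for ligands, ligand release and other receptors, 7 were tested and 0 called, with a median log2 fold change of 0.32, which was -0.11 within series 1 and 0.45 without 8 h replicate 14. All 8 h libraries were above both 1 h libraries for 2 of the 7 (Cdon and Boc), against 23.7% of all genes, and below for 0, against 9.43%. The list contains Dhh, whose log2 fold change was 0.35 (SE 0.18, limma adjusted p = 0.451) in all libraries, 0.01 within series 1 and 0.52 without 8 h replicate 14 (adjusted p = 0.0250).

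All 18 cytoplasmic regulators of Gli were tested and 0 called, with a median of 0.07, against 0.02 within series 1 and 0.08 without 8 h replicate 14. The 8 h libraries were all above the 1 h libraries for 4 of them and all below for 2, close to the 23.7% and 9.43% of all genes. Prkar1a, the regulatory subunit of protein kinase A and the most abundant of this list, was at 355.9 and 346.0 TPM at 1 h and at 378.6, 362.2 and 374.9 TPM at 8 h. Evc, a ciliary protein that acts with Smo, was at 19.1 and 20.8 TPM at 1 h and at 36.3, 22.1 and 33.4 TPM at 8 h (log2 fold change 0.56, SE 0.22, limma adjusted p = 0.401). The difference for Evc was 0.14 within series 1 (adjusted p = 0.817) and 0.77 without 8 h replicate 14 (adjusted p = 0.00946). Gsk3b, a kinase that takes part in the cutting of Gli3, was at 113.1 and 99.6 TPM at 1 h and at 84.4, 88.2 and 91.3 TPM at 8 h (log2 fold change -0.27, SE 0.10, limma adjusted p = 0.389). The value for Gsk3b was nearly the same within series 1 (-0.26) and without 8 h replicate 14 (-0.27, limma adjusted p = 0.116). As in all libraries, the difference without 8 h replicate 14 did not pass the test. Adrbk1 (also named Grk2), a kinase of Smo, and Stk36, a kinase known as Fused, differed by 0.23 and -0.17, with adjusted p = 0.435 and 0.550 in the limma fit. Within series 1 they differed by 0.17 and -0.10, and without 8 h replicate 14 by 0.26 and -0.21.

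The primary cilium list had 16 genes tested of 16 and 0 called, with a median of 0.09, against 0.00 within series 1 and 0.11 without 8 h replicate 14. Here too all 8 h libraries were above for 4 genes and below for 2, beside 23.7% and 9.43% of all genes. Kif3a, a motor subunit for transport into the cilium and the most abundant of the list, was at 59.2 and 55.7 TPM at 1 h and at 46.5, 55.5 and 53.6 TPM at 8 h. Ift88, a transport particle subunit, was at 7.06 and 4.33 TPM at 1 h and at 8.22, 7.33 and 8.92 TPM at 8 h, a difference of 0.48 on the log2 scale (SE 0.22, limma adjusted p = 0.417) that was 0.35 within series 1 and 0.54 without 8 h replicate 14. Arl13b, Cep290 and Ofd1, which act in the cilium or at its base, differed by 0.35, 0.24 and -0.19, with adjusted p between 0.420 and 0.564 in the limma fit. Within series 1 these values were 0.22, 0.23 and -0.26, and without 8 h replicate 14 they were 0.42, 0.24 and -0.15.

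Of 18 genes described as targets of Gli in other cells, 11 were tested and 0 called, with a median of 0.24 that was -0.08 within series 1 and 0.37 without 8 h replicate 14. All 8 h libraries were above both 1 h libraries for 2 of the 11, against 23.7% of all genes, and below for 1, against 9.43%. The cyclin gene Ccnd1 was the highest, at 1191 and 1189 TPM at 1 h and at 1915, 1387 and 1862 TPM at 8 h (log2 fold change 0.52, SE 0.16, limma adjusted p = 0.365). Ccnd2, a related cyclin gene, was at 617.1 and 649.8 TPM at 1 h and at 892.5, 726.1 and 867.7 TPM at 8 h (log2 fold change 0.38, SE 0.12, limma adjusted p = 0.369). For both cyclins every 8 h library was above both 1 h libraries. Within series 1 the difference was 0.22 for Ccnd1 (adjusted p = 0.641) and 0.20 for Ccnd2 (adjusted p = 0.686), and without 8 h replicate 14 it was 0.67 (adjusted p = 0.00467) and 0.47 (adjusted p = 0.0131). Cdk6, a kinase that binds these cyclins, was at 4.36 and 4.73 TPM at 1 h and at 2.01, 4.24 and 1.86 TPM at 8 h (log2 fold change -0.64, SE 0.30, limma adjusted p = 0.422). For Cdk6 it was -0.08 within series 1 (adjusted p = 0.916) and -0.92 without 8 h replicate 14 (adjusted p = 0.0155). The ventral patterning genes of the list were uneven, with Foxa2 listed at 0 in every library, Nkx2-1 at most 0.036 TPM, Nkx2-2 at 7.44 to 17.5 TPM and Olig2 at 428.9 to 674.8 TPM. Olig2 is also among the oligodendrocyte lineage markers, as is Olig1, which was at 972 to 1630 TPM. Whether the level of Olig2 depends on the pathway was not tested.

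**Figure D4:**
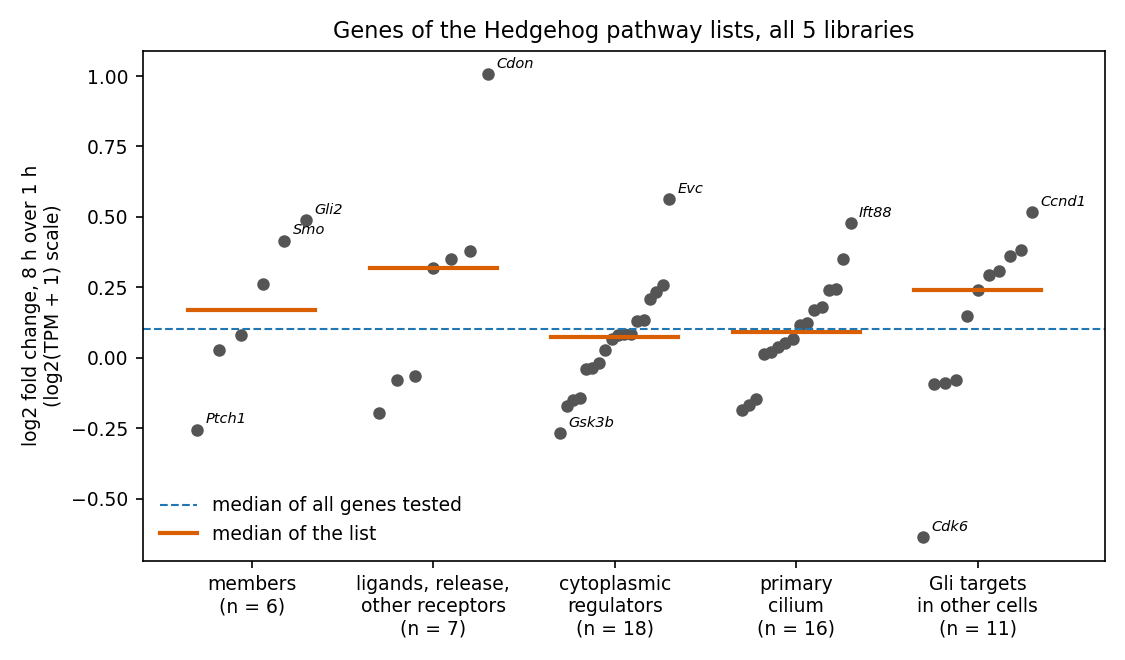
Log2 fold change, 8 h over 1 h on the log2(TPM + 1) scale, of each tested gene (grey points) in 5 lists of Hedgehog pathway genes, with the median of each list (orange line) and of all genes tested (dashed blue line, 0.10). No point was called, and Cdon (1.01) and Cdk6 (-0.64) lie furthest from 0.

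The count table listed 4 of the members, Ptch1, Smo, Gli3 and Sufu, among 7599 genes. Its 1 h columns matched the TPM tables of their libraries, with 77.5% of 7227 genes within 0.1 log2 units. The column named 8 h replicate 13 matched the table of 8 h replicate 14 (78.6%, against 25.0% for its own), and the column named 8 h replicate 15 that of 8 h replicate 13 (78.7%, against 41.2% for its own). No table matched the column named 8 h replicate 14 (39.7% at most). The columns were kept under their names, and the values below serve only beside the TPM values. Ptch1 had 254.8 and 267.6 CPM (counts scaled to the total of a column) at 1 h and 224.6, 290.2 and 182.8 CPM in the columns named 8 h replicates 13, 14 and 15. Smo had 143.2 and 156.9 CPM at 1 h and 149.6, 173.7 and 215.1 CPM at 8 h. Neither receptor gene separated the 1 h from the 8 h columns. Gli3 had 63.5 and 65.6 CPM at 1 h and 43.3, 47.3 and 71.3 CPM at 8 h. Sufu had 94.9 and 101.3 CPM at 1 h and 94.2, 86.1 and 106.5 CPM at 8 h. For Gli3 and Sufu, too, the groups overlapped. With edgeR the log2 fold changes were -0.20 for Ptch1, 0.23 for Smo, -0.29 for Gli3 and -0.06 for Sufu, with adjusted p from 0.966 to 0.972. With only the columns named as series 1, the single 8 h column is the one that matched no table. The values were then -0.49 for Gli3, -0.22 for Sufu, 0.12 for Ptch1 and 0.18 for Smo. Cdon, which is not a member, was at 0.68 in all columns of this table (edgeR adjusted p = 0.966). It was at 0.46 with only the columns named as series 1. Without the column named 8 h replicate 14 it was at 0.78 (edgeR adjusted p = 0.746). Of 7590 genes tested in this table edgeR called 0 (0%), with 199 at an unadjusted p under 0.05, and both DESeq2 and limma-voom called 0 as well.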

How the data were processed

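Gene expression was measured by paired-end RNA-seq of stranded libraries made from poly-A RNA. The authors used bcl2fastq 2.19.1.403, aligned reads to GRCm38 with STAR and counted them with featureCounts through nf-core/rnaseq. The deposited table of raw counts lists 7599 genes, so it covers only some genes, and 0 value columns were left unassigned. For each library the authors deposited TPM, FPKM and mean coverage per gene. The sources used here do not name the tool. Values of TPM were added up over the 15 to 20 extra rows per table that repeat a gene. FPKM and coverage served for depth, since their most common ratio is proportional to it, and it was lowest in 1 h replicate 1 (5.58) and highest in 8 h replicate 14 (7.18). Column totals of the count table were 13988166 to 18572154. The column named 8 h replicate 14 had 14474825, below the 18023535 and 18572154 of those named 8 h replicates 13 and 15. Column total and ratio thus disagree for the name 8 h replicate 14. For the TPM tables no counts are known, so no counting intervals were given.

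Groups came from the labels. TPM was tested with limma 3.58.1 (intensity trend) in R 4.3.3 on log2(TPM + 1), which understates changes of low genes, over genes that averaged at least 1 TPM, with Benjamini-Hochberg adjustment. Counts were tested with edgeR 4.0.16 (quasi-likelihood, TMM, filterByExpr), with the SE taken from the F statistic. The TPM tables were the main source because they hold every member. Alternatives were pseudocount 0.1, no filter, median-ratio scaling, the identifier series as a term or series 1 alone (its single 8 h library was assumed to vary like the 1 h group), leaving out each library, an adjusted p of 0.01 and no fold threshold, and for counts also DESeq2 1.42.0, limma-voom, RLE normalization and a CPM of at least 1 in 2 columns. The scripts were tested on simulated data.

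Named genes were the members, in each further list the most abundant gene by mean TPM and up to 4 genes with the largest change whose groups did not overlap, and the 5 genes closest to Gli1. A few genes of the lists or of this rule are not reported here. Other genes named (Ihh, Hhat, Disp1, Foxa2, Nkx2-1, Nkx2-2, Olig2 and overlapping or marker genes) were chosen after their values were seen. The members and lists were chosen with earlier results of these data known. The study defined a biological replicate of SVZ cells as 1 animal, whereas the labels do not tie libraries to animals, so p-values measure the spread between these libraries. Promoters are those of RefSeq on GRCm38.p6.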

Additional observations from a re-analysis of the deposited data

How the results depend on the processing

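No paired analysis was possible because the groups share no replicate number. None of the 6 members tested was called under any alternative with the fold threshold. Ptch1 and Smo kept their direction in all 10 TPM alternatives (-0.37 to -0.12 and 0.02 to 0.61). Genes called in the TPM tables were 6 in all libraries, 0 without the filter, 19 with the identifier series as a term, 2 at an adjusted p of 0.01, and 0 to 568 leaving out 1 library, with 568 without 8 h replicate 14 and 0, 0, 1 and 0 without 1 h replicates 1 and 2 and 8 h replicates 13 and 15. In the list of ligands and other receptors, leaving out 1 library gave 0 to 1 calls, the 1 being Cdon without 8 h replicate 14. In the count table, the columns named as series 1 alone gave 145 calls against 0. With the series as a term or series 1 alone, the log2 fold change was -0.16 for Gli2, -0.55 for Gli3 and -0.50 for Gas1 in TPM, and 0.12 for Ptch1 in counts, where the 8 h column of series 1 matched no TPM table. Median-ratio scaling gave -0.081 for Gli3 and -0.032 for Sufu. Leaving out 1 library gave -0.12 to 0.31 for Gli3 (also below 0 without 1 h replicate 1 or 8 h replicate 13, the lowest being without 8 h replicate 15) and -0.025 to 0.64 for Gas1 (below 0 without 8 h replicate 15), and for Sufu in counts -0.14 to 0.019 (above 0 without the column named 8 h replicate 14). The cause of these differences was not tested. With 2 and 3 libraries a group, and Shh, Hhip and Gli1 below a mean of 1 TPM, depth limits what can be said of these 3 genes.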
